A study of Mus musculus with 6 samples.

Results

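The placement of H3K4me3 relative to H3K27me3 was examined in proliferating cultures of neural stem cells from the subventricular zone (SVZ), the germinal layer along the lateral ventricles of the mouse brain that keeps making neurons after birth. The members were chosen by position alone: every peak of the H3K4me3 list and of the proliferating H3K27me3 list that lies on chromosomes 1 to 19, without unplaced contigs. This gave 18037 of the 18727 H3K4me3 peaks and 9013 of the 9470 H3K27me3 peaks, or 27050 of the 43384 peaks in the 3 lists of the series. Both marks were measured by ChIP-seq, in which sonicated chromatin is recovered with an antibody to the modified histone and the DNA is sequenced, in monolayer cultures of C57BL/6 cells at passages 5 to 7. There was 1 library per mark, no genotype or treatment is given in the labels, and the label of the H3K4me3 culture adds that it was ventral, which that of the H3K27me3 culture does not. The third list, H3K27me3 in cultures differentiated for 30 h, is set beside the proliferating one near the end.

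H3K4me3 is placed by the SET1 and MLL methyltransferase complexes and marks the promoters of active genes and of many poised ones. H3K27me3 is placed by EZH2, the catalytic subunit of Polycomb repressive complex PRC2, and marks silenced developmental genes, from single promoters to whole gene clusters. Chromatin that carries both marks is called bivalent, and is known from the promoters of developmental regulators in stem cells. Peak lists from a population cannot show whether both marks sat on the same chromosomes in the same cells, and nothing below separates these cases. Gene positions in the mm9 build used by the lists were not at hand, so peaks are given by coordinates, and neither genes nor the markers of the cultured cells could be read.

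With 1 library per mark, no difference below was tested against variation between libraries or cultures. Intervals are 95% Wilson confidence intervals and cover the counting error of peaks only. The depth of the libraries is unknown, because the lists hold a start, an end and a MACS score for each peak but no read counts. The score is higher for stronger peaks and many peaks share a ceiling of 3100, which 47.1% of the H3K4me3 peaks and 2.42% of the H3K27me3 peaks reached or passed. Median peak width was 1974 bp for H3K4me3 and 2082 bp for H3K27me3, and the lists covered 38.2 and 28.0 Mb.

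Most H3K4me3 peaks stood clear of H3K27me3. Of the 18037 peaks, 16029 (88.9%, interval 88.4 to 89.3%) overlapped no H3K27me3 peak, while 2008 (11.1%, 10.7 to 11.6%) overlapped one by at least 1 bp. The overlapping peaks were sorted into 4 placements. A peak was inside when both of its ends lay within 1 H3K27me3 peak, which held for 1236 peaks. It was at an edge when it crossed 1 boundary, which held for 679. The remaining 70 bridged 2 neighbouring H3K27me3 peaks, and 23 contained a whole H3K27me3 peak and overlapped no other. Among overlapping peaks, 61.6% (59.4 to 63.7%) were thus inside and 33.8% (31.8 to 35.9%) at an edge. A further 764 peaks (4.24%, 3.95 to 4.54%) flanked an H3K27me3 peak, with a gap of up to 5 kb and no overlap.

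**Figure D1:**
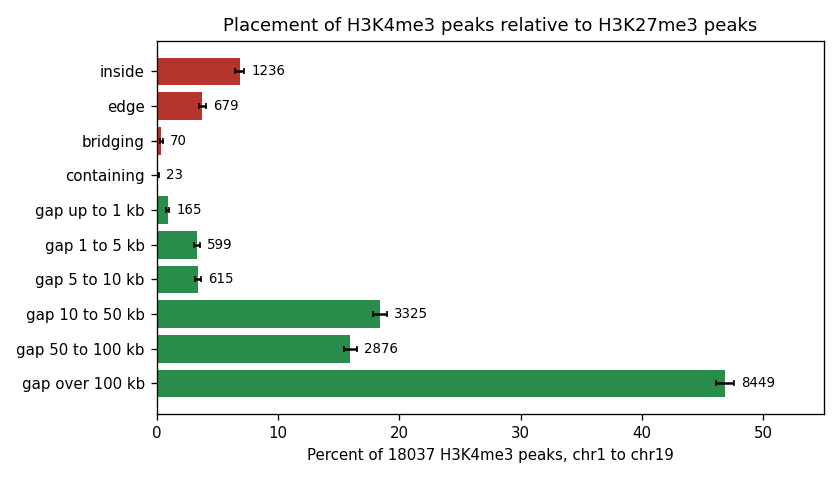
Placement of H3K4me3 peaks in proliferating SVZ cultures. Bars give the percent of the 18037 H3K4me3 peaks (x axis) in each placement (y axis, red for overlap with H3K27me3 and green for gaps to the nearest H3K27me3 peak), with 95% Wilson intervals and the number of peaks. The 1236 inside peaks outnumber the 679 at an edge, and 8449 lie over 100 kb from H3K27me3.

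The share of H3K4me3 peaks over H3K27me3 was lowest on chromosome 16 (7.13%) and highest on chromosome 8 (15.0%), with a median of 11.2% over the 19 chromosomes. The value on chromosome 8 rested on 1 H3K27me3 peak that held 47 of its 153 overlapping H3K4me3 peaks. Without that peak, a setting chosen after seeing the data, chromosome 8 stood at 10.9% and the highest share was 11.7%, on chromosome 4. The share of overlapping peaks that were inside ran from 48.2% on chromosome 15 to 70.3% on chromosome 9. Flanking peaks made up from 1.48% of the H3K4me3 peaks on chromosome 18 to 7.43% on chromosome 17.

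H3K4me3 peaks that did not overlap were mostly remote from H3K27me3. Their median gap to the nearest H3K27me3 peak was 108.6 kb, with quartiles of 40.5 and 241.4 kb and a largest gap of 2196 kb. A gap of up to 1 kb was found for 165 of them (1.03%), of up to 10 kb for 1379 (8.60%) and of up to 100 kb for 7580 (47.3%). From the other side the distances were shorter. The 7210 H3K27me3 peaks with no H3K4me3 over them had a median gap of 42.6 kb to the nearest H3K4me3 peak, with quartiles of 12.1 and 133.4 kb. Of these, 168 (2.33%) lay within 1 kb of H3K4me3, 1573 (21.8%) within 10 kb and 4992 (69.2%) within 100 kb. The H3K4me3 list holds more peaks, which by itself brings a nearest H3K4me3 peak closer. Whether number accounts for the whole difference was not tested.

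H3K4me3 was denser within H3K27me3 peaks than around them. It covered 9.82% of the H3K27me3 length and 1.49% of the remaining length between the first and the last peak of each chromosome, a ratio of 6.60. The shared length was 2.75 Mb, or 7.19% of all H3K4me3. Followed across the boundary, coverage showed no maximum at the edge. It was 13.8% at 1 to 2 kb inside the edge, 9.05% at 0.5 to 1 kb and 5.40% in the last 0.25 kb. Just outside it was 4.37% in the first 0.25 kb, 2.91% at 0.5 to 1 kb and 2.19% at 1 to 2 kb. From there it hardly changed, with 2.003% at 5 to 10 kb and 1.75% at 50 to 100 kb, and it was 1.28% beyond 100 kb. Per base, over all peaks together, H3K4me3 was thus densest under H3K27me3, and outside the mark it covered more than 2.19% only in the bins within 1 kb of the edge.

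The profile depended on how wide the H3K27me3 peak was. In peaks of 2 to 5 kb, coverage went from 6.55% in the outer 0.25 kb to 16.2% at 1 to 2 kb from the edge. In peaks of 5 to 10 kb it went from 5.35% to 17.4% at 2 to 3 kb and 20.5% at 3 to 5 kb. The narrowest peaks of this class do not reach the last bin, which holds 0.552 Mb against 1.11 Mb at 2 to 3 kb. In peaks under 2 kb it was lower throughout, between 4.22% and 6.71%. Peaks of 10 kb and over looked different. Their coverage was 7.03% in the outer 0.25 kb, 6.32% at 1 to 2 kb, 10.7% at 3 to 5 kb and 11.8% beyond 10 kb from the edge. The last value rested on few peaks, and was 5.44% without the 5 wide H3K27me3 peaks of which H3K4me3 covered at least 50%, a setting chosen after seeing the data. Around these wide peaks H3K4me3 stayed at 6.38% in the first 0.25 kb outside and 5.10% at 1 to 2 kb, against 1.15% at 3 to 5 kb, but the bins outside hold little sequence (0.133, 0.369 and 0.593 Mb).

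**Figure D2:**
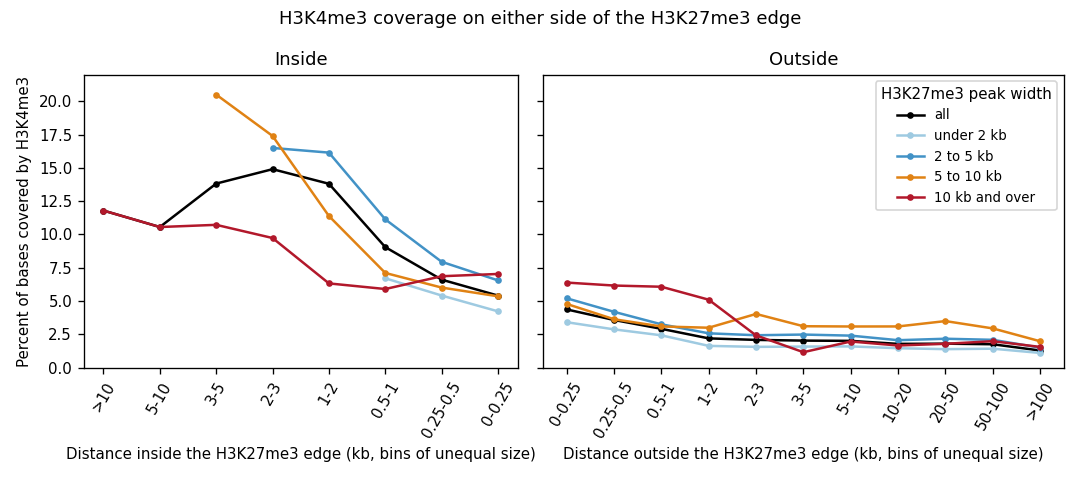
H3K4me3 coverage across the boundary of H3K27me3 peaks. The y axis is the percent of bases under an H3K4me3 peak and the x axis the distance from the nearest H3K27me3 edge in kb, in bins of unequal size, with the left panel inside and the right panel outside. Lines are H3K27me3 width classes and all peaks together, and coverage over all peaks is 13.8% at 1 to 2 kb inside, 4.37% just outside and 1.28% beyond 100 kb.

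Placement is defined by the extents of both peaks, and an inside peak cannot be wider than its H3K27me3 peak. Inside peaks were narrow and lay in wide, strong H3K27me3 peaks. The 1236 of them had a median width of 1288 bp, with quartiles of 1039 and 1625 bp, and took up a median of 26.1% of the H3K27me3 peak around them. They lay in 1042 different H3K27me3 peaks. Counted once per inside peak, these H3K27me3 peaks had a median width of 5175 bp and a median score of 690.4. The nearer H3K27me3 edge was a median of 1029 bp from the end of the H3K4me3 peak and the farther one 2621 bp. For 345 inside peaks (27.9%) the nearer edge was within 500 bp, and for 156 (12.6%) it was over 5 kb away. A single H3K27me3 peak of 88.5 kb on chromosome 8 held 47 inside peaks, most of them over 5 kb from either edge.

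Within the H3K27me3 peak, more of their middles lay in the central 20% where the peak was narrow than where it was wide. In H3K27me3 peaks of 2 to 5 kb, 49.7% of the 527 inside peaks had their middle in the central 20% of the H3K27me3 peak and 0.190% in the outer 20%. A peak that takes up 40.9% of its host, the median there, cannot have its middle in the outer 20% and still be inside. Its middle can still lie outside the central 20%, but the little room left raises the central share by itself. The share under even placement was not computed, so these shares do not show a preference for the centre. In peaks of 10 kb and over the median share taken was 6.62%. There, 23.0% of the 343 inside peaks had their middle in the central 20% and 8.75% in the outer 20%. The nearer edge was a median of 4643 bp away. The H3K27me3 peak on chromosome 8 held 47 of the 343, and these values were not computed without it.

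Edge peaks were wider and stronger, and their H3K27me3 peaks narrower and weaker. The order of widths follows in part from how the placements are defined. The 679 edge peaks had a median width of 1871 bp. The H3K27me3 peaks they crossed, counted once per edge peak, had a median width of 2281 bp and a median score of 141.3. Both boundaries were crossed about equally often, 328 times the one with the lower coordinate and 351 times the other. The larger part of an edge peak usually lay under H3K27me3: the median share inside was 63.6%, 475 peaks (70.0%) had at least 50% inside, and 23 overlapped by less than 100 bp. The median edge peak extended 626 bp beyond the boundary. The 70 bridging peaks each joined exactly 2 H3K27me3 peaks, across gaps with a median of 300.5 bp, from 2 to 3601 bp. In these places H3K27me3 was called on both sides of a small interruption that lay under H3K4me3.

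An H3K4me3 peak must be at least as wide as an H3K27me3 peak that it contains. The H3K27me3 peaks contained whole by an H3K4me3 peak that overlapped no other had a median width of 1777 bp and a median score of 84.6. The 23 H3K4me3 peaks that contained one were the widest class, with a median of 3403 bp. The widest lay at chr19:59239023-59246881 (7.86 kb) over an H3K27me3 peak of 3.50 kb with a score of 255.8. Next in width were the peaks at chr14:49281233-49287438 (6.21 kb), chr11:120045935-120052094 (6.16 kb), chr5:3340442-3346040 (5.60 kb) and chr13:115246004-115251081 (5.08 kb). The H3K27me3 peak under the last had a score of 50.8, close to the lowest of the list, 50.01.

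Placement differed with the score of the H3K4me3 peak. The median score was 326.0 for inside peaks, 1573 for edge peaks and 1903 for bridging peaks, and 3100 for containing peaks and for peaks without overlap. The ceiling was reached by 2.51% of inside peaks, 23.6% of edge peaks, 42.7% of flanking peaks and 51.6% of all peaks without overlap. Strong peaks are wide, so width was held apart from score. Among H3K4me3 peaks under 2 kb, 18.0% (17.2 to 18.8%) of those below the ceiling overlapped H3K27me3, against 2.45% (1.64 to 3.65%) of those at it. Among peaks of 2 kb and over the shares were 23.2% (21.0 to 25.6%) and 2.65% (2.31 to 3.04%). The gap between score groups was therefore present at either width. Flanking did not show one order: 8.09% of the peaks under 2 kb at the ceiling and 4.65% of those below it flanked H3K27me3, but 3.31% and 4.17% of the peaks of 2 kb and over.

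The same order was seen with the width of the H3K27me3 peak taken into account. Over H3K27me3 peaks of 2 to 5 kb, 62.0% (58.6 to 65.2%) of 826 H3K4me3 peaks below the ceiling were inside, against 13.2% (8.14 to 20.6%) of 114 at it. Over peaks of 5 to 10 kb these shares were 89.6% (85.8 to 92.5%) of 318 and 26.7% (14.2 to 44.4%) of 30. Over peaks of 10 kb and over they were 92.8% (89.7 to 95.04%) of 361 and 50% (28.0 to 72.0%) of 16. H3K4me3 peaks at the ceiling were themselves wider, with medians of 2542, 2809 and 3368 bp in these classes against 1437, 1392 and 1283 bp, and a wider peak crosses a boundary more readily. With the stronger 50% of each list the balance turned round, to 21.2% inside and 69.6% at an edge among 217 overlapping peaks.

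**Figure D3:**
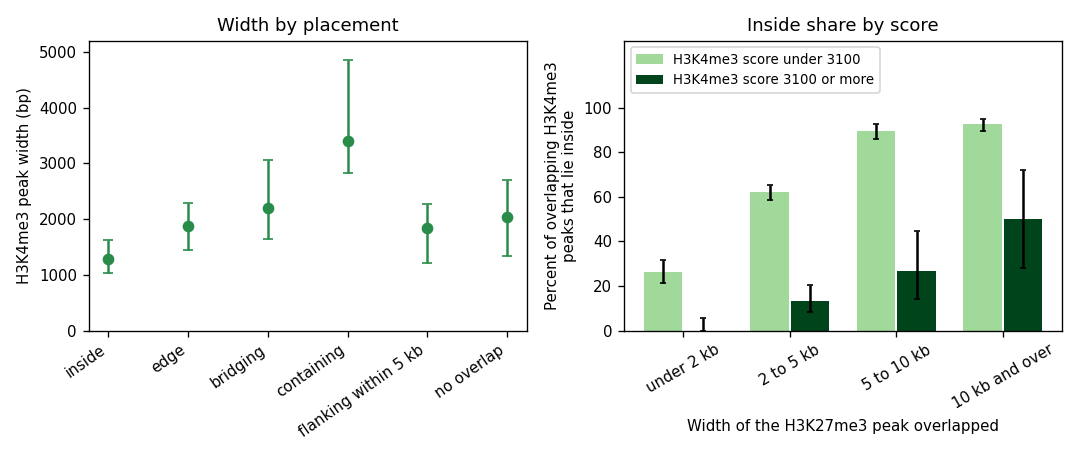
Width and strength of H3K4me3 peaks by placement. The placements are defined by the extents of both peaks, so the order of widths follows in part from the definition. Left, median H3K4me3 peak width in bp (y axis) with quartiles as bars, by placement (x axis), from 1288 bp for inside peaks to 3403 bp for containing peaks. Right, percent of overlapping H3K4me3 peaks that are inside (y axis) by width of the H3K27me3 peak (x axis), with 95% Wilson intervals. Light bars are H3K4me3 scores under 3100 and dark bars 3100 or more. The light bar is higher in each class. Over H3K27me3 peaks under 2 kb, the H3K4me3 peaks scoring 3100 or more had a median width of 2594 bp, so most could not lie inside.

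Seen from H3K27me3, 1803 of 9013 peaks (20.004%, 19.2 to 20.8%) had at least 1 H3K4me3 peak over them. Of these, 975 (54.1%) carried H3K4me3 in the interior with neither edge crossed, 782 (43.4%) had 1 edge crossed and 46 (2.55%) had both crossed. In 14 of the 46, 2 or more H3K4me3 peaks did so, and in 32 a single one spanned the whole H3K27me3 peak. The 32 include H3K27me3 peaks spanned by a bridging H3K4me3 peak. Another 884 H3K27me3 peaks (9.81%, 9.21 to 10.4%) had none over them but were flanked within 5 kb, 813 on 1 side and 71 on both. The remaining 6326 (70.2%, 69.2 to 71.1%) had no H3K4me3 over them or within 5 kb, with a median width of 1924 bp and a median score of 78.4. The H3K27me3 peaks with H3K4me3 in the interior were the widest and strongest of these kinds, with medians of 4204 bp and 465.0. Such a peak must be at least as wide as the H3K4me3 peak it holds, so the order of widths follows in part from the sorting.

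H3K27me3 peaks rarely held more than 1 H3K4me3 peak. Exactly 1 lay over 1619 of the 1803 (89.8%), 2 over 153 (8.49%) and 3 or more over 31 (1.72%). Neighbouring H3K4me3 peaks in the same H3K27me3 peak had a median gap of 1.47 kb over 269 pairs, and of 2.02 kb over the 223 pairs that remain without the single densest H3K27me3 peak. These gaps are bounded by the width of the H3K27me3 peak, whose median was 8117 bp where it held exactly 2.

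The wider an H3K27me3 peak, the more often it held H3K4me3, and where H3K4me3 was present it covered a smaller part of a wider peak. H3K4me3 was present over 8.70% (7.89 to 9.60%) of the 4171 H3K27me3 peaks under 2 kb, 23.7% (22.4 to 25.01%) of the 3927 of 2 to 5 kb, 50.2% (46.3 to 54.2%) of the 617 of 5 to 10 kb and 67.4% (61.9 to 72.5%) of the 298 of 10 kb and over. A wider peak offers more sequence. Per 10 kb of H3K27me3 the number of overlapping H3K4me3 peaks was 0.541, 0.862, 0.866 and 0.660 in the same classes, and 0.588 in the widest without its densest peak. This count was nearly level from 2 to 10 kb and lower in the widest class. It includes H3K4me3 peaks that cross an edge, which add more per length to narrow H3K27me3 peaks. Where H3K4me3 was present, 19.6%, 53.6%, 79.7% and 79.1% of the H3K27me3 peaks had neither edge crossed. The density of inside peaks alone was not computed. The median share of the H3K27me3 peak covered, where H3K4me3 was present, was 65.7%, 42.7%, 23.4% and 11.2%. Over all H3K27me3 peaks of a class, with or without H3K4me3, it covered 5.54%, 11.3%, 12.7% and 9.90% of the length, so the narrowest class was covered least. Among the 201 peaks of 10 kb and over with H3K4me3, the longest stretch free of it had a median of 9.40 kb, or 55.1% of the peak, and 95 held 2 or more H3K4me3 peaks. Over all 1803 H3K27me3 peaks with H3K4me3, it covered 28.3% of their summed length.

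**Figure D4:**
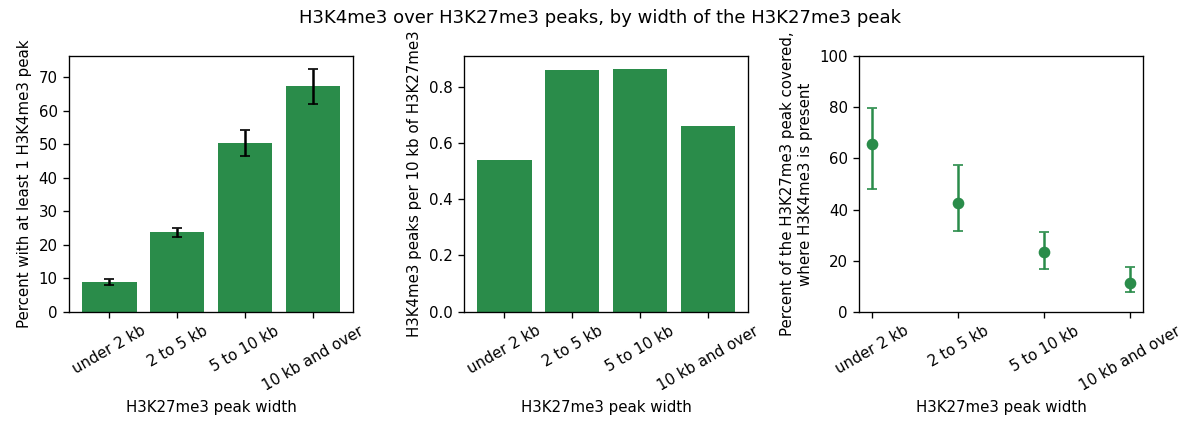
H3K4me3 over H3K27me3 peaks by width class of the H3K27me3 peak (x axes). Left, percent with at least 1 H3K4me3 peak, with 95% Wilson intervals, from 8.70% to 67.4%. Middle, H3K4me3 peaks per 10 kb of H3K27me3, counting any overlap, highest at 0.866. Right, median percent of the H3K27me3 peak covered where H3K4me3 is present, with quartiles as bars, from 65.7% down to 11.2%.

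H3K27me3 peaks without H3K4me3 were not all remote from it. The median gap to the nearest H3K4me3 peak was 57.4 kb for those under 2 kb, 33.1 kb for 2 to 5 kb, 24.6 kb for 5 to 10 kb and 39.5 kb for the 97 of 10 kb and over. A flanking H3K4me3 peak within 5 kb was found for 9.59% (8.69 to 10.6%), 15.1% (13.9 to 16.4%), 17.3% (13.4 to 21.9%) and 13.4% (8.002 to 21.6%) of them.

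The 5 widest H3K27me3 peaks differed in how much H3K4me3 they held, from none to 47 peaks. The widest, at chr15:102737267-102876982 (139.7 kb), held a single inside H3K4me3 peak that covered 0.803% of it and left 92.0 kb free in 1 stretch. The peak at chr11:96111074-96216907 (105.8 kb) held none, with the nearest H3K4me3 124.7 kb away. At chr6:52141772-52222283 (80.5 kb) there were 2 inside peaks and 1 across an edge, together 3.79% of its width. The peak at chr11:3024773-3101055 (76.3 kb) held none but was flanked at a distance of 0.205 kb. The last of these 5, at chr8:126060802-126149287 (88.5 kb), held 47 inside peaks over 65.2% of its width. The other 3 of the 5 widest H3K27me3 peaks with no H3K4me3 lay at chr7:67001900-67045855 (44.0 kb), chr11:96027637-96070140 (42.5 kb) and chr5:140002665-140043401 (40.7 kb), with gaps of 101.8, 41.2 and 41.3 kb to H3K4me3.

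The 5 peaks of 10 kb and over with the largest share covered by H3K4me3 were also the 5 with the most H3K4me3 peaks, where ties at 4 peaks were ordered by position. A pair lay near each other, at chr6:47600852-47637386 (36.5 kb) and chr6:47686846-47724220 (37.4 kb), each with 7 H3K4me3 peaks and with 86.7% and 81.4% of the width covered. After the peak on chromosome 8 came those at chr12:57618415-57644003 (25.6 kb), with 5 H3K4me3 peaks over 61.8%, and at chr1:172993047-173017108 (24.1 kb), with 4 over 57.3%. All 5 widest inside H3K4me3 peaks lay in 3 of these regions, 4 in the chromosome 6 pair and 1 on chromosome 12, with widths of 5.93 to 8.06 kb. The 47 H3K4me3 peaks on chromosome 8 were weak and alike, with scores of 51.7 to 184.6 and widths of 965 to 1505 bp. They followed each other at a nearly even step, with a median of 1707 bp from middle to middle and quartiles of 1667 and 1754 bp, and 42 of the 46 steps lay between 1.4 and 2.2 kb. They made up 3.803% of all inside peaks. Input DNA was not analysed here, and its level in these regions was not tested.

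**Figure D5:**
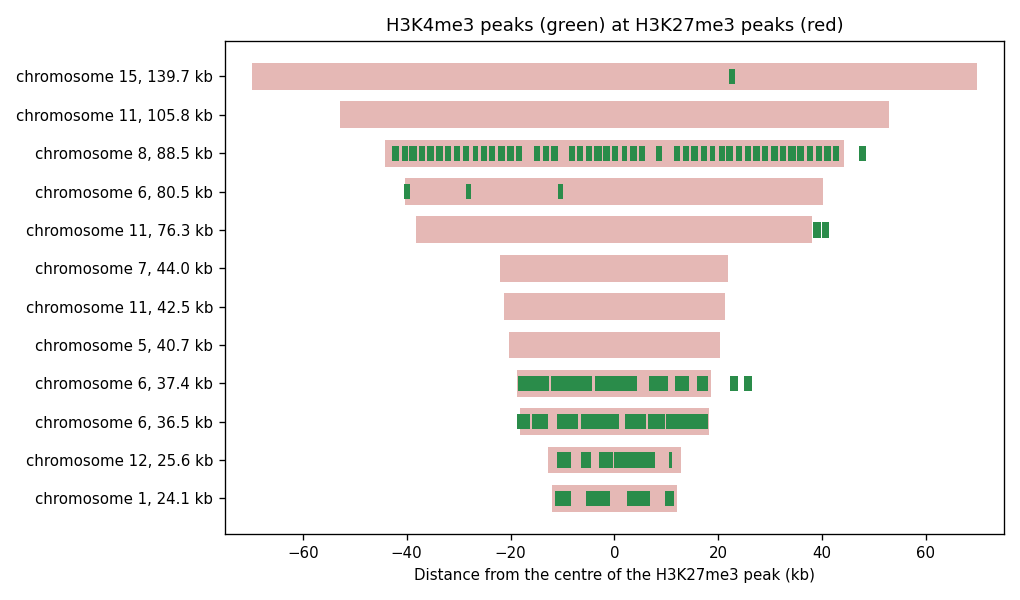
H3K4me3 peaks (green) within and up to 10 kb around the named H3K27me3 peaks (red), which are the widest, the most densely covered and the widest without H3K4me3. The x axis is the distance in kb from the centre of each H3K27me3 peak, to scale, and each row (y axis) is 1 peak with its chromosome and width. The peak of 139.7 kb holds 1 H3K4me3 peak, and that of 88.5 kb on chromosome 8 holds 47 at a nearly even step.

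Set against the H3K27me3 list of the cultures at 30 h of differentiation, the same H3K4me3 peaks of proliferating cells were again more often inside than at an edge. That list holds 14871 peaks on chromosomes 1 to 19, covers 72.1 Mb and has a median width of 3233 bp. Of the 18037 H3K4me3 peaks, 2626 (14.6%, 14.1 to 15.1%) overlapped it, against 11.1% for the proliferating list. Of the 2626, 59.5% (57.6 to 61.4%) were inside and 34.9% (33.1 to 36.7%) at an edge, against 61.6% and 33.8% in the proliferating list. Out of the same 18037 peaks, 1580 flanked H3K27me3 at 30 h and 764 in the proliferating list, which holds fewer H3K27me3 peaks to flank. H3K4me3 lay over 16.0% (15.4 to 16.6%) of the H3K27me3 peaks at 30 h and over 20.004% of the proliferating ones, and covered 4.61% and 9.82% of their length. The comparisons share the H3K4me3 list, and the H3K27me3 lists differ in length and in culture as well as in time.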

How the data were processed

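The submitters' processing notes name Bowtie2 and the mm9 build. According to the study's methods, MACS called the peaks, with the no-model and no-lambda settings for H3K27me3. No source used here gives the MACS version, the threshold or whether input was used. Each list holds 1 library. The last column holds the MACS score deposited by the authors, used only to rank, group or filter peaks within a list. Depth is unknown. Starts, counted from 0 in the lists, are printed counted from 1.

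Placement, distances and coverage were computed from the peak coordinates with Python 3.11.15, numpy 2.4.6 and pandas 2.3.3, and Wilson intervals with scipy 1.17.1, after the code was tested on simulated data. Sequence outside H3K27me3 was assigned to the nearest H3K27me3 peak. Figures were drawn with matplotlib 3.10.9. Peaks on X, Y and unplaced contigs (690 of H3K4me3 and 457 of H3K27me3) were left out.

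No difference was tested, since there was 1 library per mark. The members were chosen with earlier results of these data known. Peaks named are the first 5 by width, by number of H3K4me3 peaks, by share covered (10 kb and over), by width with no H3K4me3, and by width among inside and containing H3K4me3 peaks. Gene results had been planned for the case that mm9 positions were given, and were not computed, since the table given is in GRCm38.p6 coordinates. Alternatives were another overlap minimum, stronger peaks, merged peaks, peak middles, other limits and chromosomes, and leaving out the densest peak.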

Additional observations from a re-analysis of the deposited data

How the results depend on the processing

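Of 45 alternative values, 15 stayed within the interval of the reported value (for the length covered, within 1 percentage point), among them those from leaving out the densest H3K27me3 peak or adding chromosome X. With at least 50% of the H3K4me3 peak overlapped, 9.91% of H3K4me3 peaks overlapped H3K27me3, 69.2% of these were inside and 26.6% at an edge, 5.46% flanked (peaks that overlap by less count here) and 17.3% of H3K27me3 peaks held H3K4me3. With the stronger 50% of each list these were 2.41%, 21.2%, 69.6%, 2.46% and 5.02%, and 34.6% of the length was covered. With H3K27me3 peaks less than 3 kb apart merged, 66.5% were inside, 22.4% of H3K27me3 peaks held H3K4me3 and 23.8% of the length was covered. By peak middles, 9.86% overlapped, 4.73% flanked and 17.2% of H3K27me3 peaks held H3K4me3. With inside peaks required to stay 500 bp from the edges and the others counted at the edge, the shares were 44.4% and 51.0%. With flank limits of 10 and 2 kb, 7.65% and 1.86% flanked.

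The following were chosen after seeing the data. With the stronger 50% of the H3K4me3 list alone, 3.08% overlapped, 16.9% of these were inside and 69.8% at an edge, and 3.30% of H3K27me3 peaks held H3K4me3. With the stronger 50% of the H3K27me3 list alone, the values were 9.58%, 67.5%, 29.3% and 33.3%, so the turn from inside to edge came with the H3K4me3 list. Coverage over 10 kb inside wide peaks was 5.44% without the 5 at least 50% covered. No paired analysis was possible because each mark has 1 library. The share of peaks inside or at an edge depends on peak widths, which the unknown depth and threshold set in part.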

Other observations

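On chromosome X, 21 of 610 H3K4me3 peaks (3.44%, 95% Wilson interval 2.26 to 5.21%) overlapped an H3K27me3 peak of the proliferating list, 11 of them inside, 9 at an edge and 1 containing a whole H3K27me3 peak. A further 3 flanked one within 5 kb. Of the 285 H3K27me3 peaks on X, 18 (6.32%, 4.03 to 9.76%) had H3K4me3 over them. Of these 285 peaks, 189 were under 2 kb wide, and 5 of the 189 had H3K4me3 over them. On the numbered chromosomes the lowest share of H3K4me3 peaks over H3K27me3 was 7.13%, on chromosome 16, and the lowest share of H3K27me3 peaks with H3K4me3 was 14.9%, also on chromosome 16. No source used here gives the sex of the animals, and the difference was not tested.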
